A study of Mus musculus with 7 samples.

Results

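The subject is the change across the transcriptome of RAW264.7 with 1 short hairpin against Dpep2, shDpep2.759. RAW264.7 is a macrophage-like line of the mouse derived from a virus-induced tumour. The 2 libraries with shDpep2.759 were compared with the 3 libraries of the control hairpin shNT, so 5 of the series' 7 libraries entered the comparison. Genes were included when at least 10 counts were recorded in 2 or more of these 5 libraries, which kept 13204 of 55417 gene symbols. The series' other 2 libraries carry a separate Dpep2 hairpin, shDpep2.968, and were used only where the hairpins were set against each other. All groups share the cell line and carry a hairpin, and no further treatment is recorded in the labels. The labels do not say whether each hairpin line was a pool or a clone, how long the cells had carried it, or whether replicates were separate cultures. The p-values therefore reflect how far these libraries varied within a group, and that variation may be technical.

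The product of Dpep2 is a dipeptidase anchored in the membrane, and it converts leukotriene D4 to leukotriene E4, a late step in the breakdown of cysteinyl leukotrienes. These lipid mediators are made from arachidonic acid in myeloid cells, beginning with 5-lipoxygenase, whereas the cyclooxygenases turn the same substrate into prostaglandins. A short hairpin is processed by the cell's small-RNA machinery into a guide strand that lowers the matching transcript, and it can lower other transcripts with partial matches.

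Total counts of the 7 libraries ran from 16548648 to 18401060. Across genes, log2 CPM (counts scaled to a common library size) of the shNT libraries correlated at 0.985 to 0.989 with each other, and those of the shDpep2.759 libraries at 0.980. The library shDpep2.759 replicate 2 correlated at 0.982 with shNT replicate 1, slightly above its correlation with its own partner. Markers of macrophages were abundant in all 5 libraries, with summed levels of 22126 to 26321 CPM for shDpep2.759 and 19131 to 21242 CPM for shNT over 24 genes. Epithelial markers summed to 0.109 CPM or less in each library, and Epcam, Krt18, Krt5, Krt14 and Cldn4 were at 0 in all 5.

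Dpep2 itself was lower in both hairpin libraries. It stood at 24.7 and 19.5 CPM with shDpep2.759 and at 55.9, 59.9 and 51.8 CPM with shNT, so the groups did not overlap. The fitted change was -1.34 on the log2 scale (SE 0.15, 95% interval -1.66 to -1.01), or 39.6% of shNT (adjusted p = 0.000681 in edgeR's quasi-likelihood test). With each library left out in turn the change lay between -1.51 and -1.17, and the call was kept each time. Bulk RNA does not separate fewer cells with the transcript from less transcript per cell, here or for any gene below. The related dipeptidase Dpep1 had 0 counts in all 5 libraries and was not tested.

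Of the 13204 genes, 605 passed an adjusted p of 0.05 (4.58%), 339 higher with shDpep2.759 (2.57%) and 266 lower (2.01%). At least a 2-fold change was fitted for 154 of the higher and 84 of the lower genes, and the smallest called change was 0.457 on the log2 scale. The median change over all tested genes was 0.0002 on that scale, and 2587 genes had an unadjusted p under 0.05. Both hairpin libraries lay outside the range of the 3 control libraries for 4815 genes (36.5%), so a gene whose groups do not overlap is common in this comparison.

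**Figure D1:**
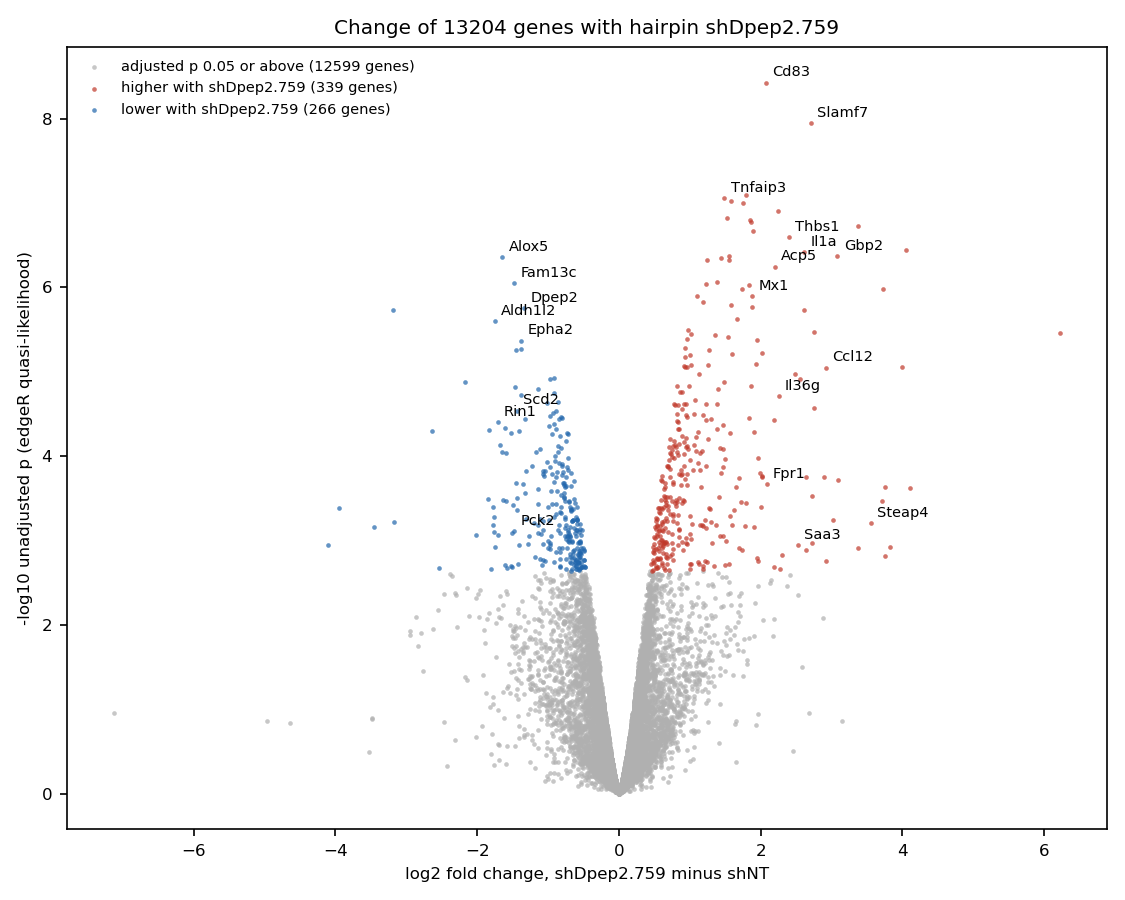
Log2 fold change of shDpep2.759 minus shNT (x axis) against -log10 of the unadjusted edgeR p (y axis) for all 13204 tested genes, with the 339 higher genes in red, the 266 lower genes in blue and the others in grey. Cd83 and Slamf7 have the smallest p among the labelled genes, and Alox5 has the smallest among the labelled genes that were lower.

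The number of calls depended on single libraries. Without shNT replicate 2 it fell to 108 and without replicate 3 to 151, against 578 without replicate 1. Leaving out a hairpin library raised it, to 1021 without replicate 1 and 1149 without replicate 2, in fits where the remaining hairpin library is assumed to vary as the controls do. Of the 605 genes, 73 higher and 22 lower genes were called in all 5 of these fits, and the account below leads with them. For the genes described below in detail, libraries whose omission ended the call are given.

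**Figure D2:**
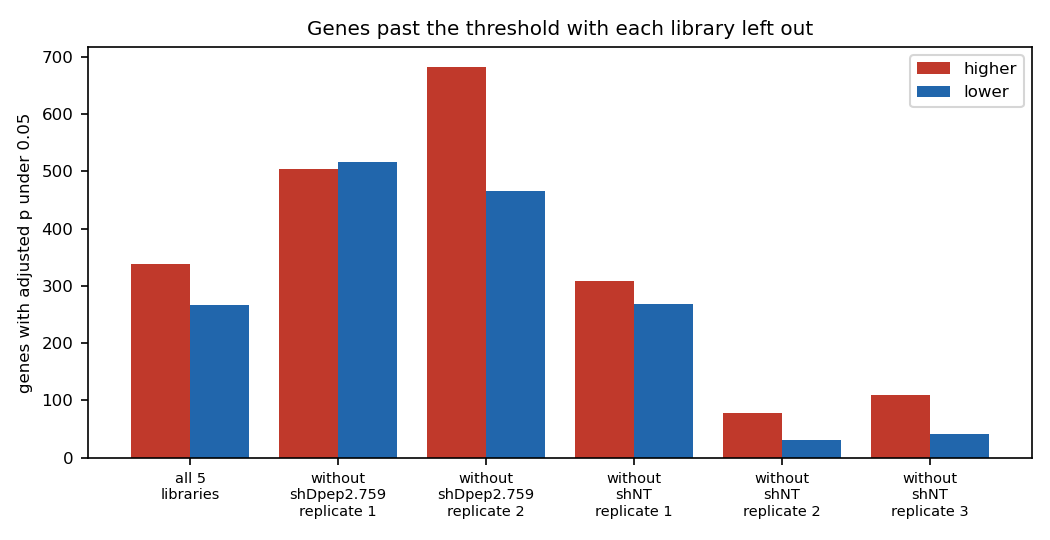
Number of genes past an adjusted p of 0.05, split into higher and lower, with all 5 libraries and with each library left out. The bars are shortest without shNT replicate 2 (108 genes) and shNT replicate 3 (151 genes).

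Genes of leukotriene and prostaglandin metabolism were the list nearest to Dpep2. Of 21 tested genes, 4 fell, Dpep2 among them, and 1 rose, while 9 had a positive change, with a median log2 change of -0.13 over the list against 0.0002 over all genes. Among all tested genes 2.01% fell and 2.57% rose, and Dpep2 is the hairpin's own target. Alox5, which encodes 5-lipoxygenase, stood at 15.7 and 12.3 CPM with shDpep2.759 and at 41.0, 48.8 and 42.2 CPM with shNT. It fell by 1.65 on the log2 scale (SE 0.16, edgeR adjusted p = 0.000299). The highest hairpin library lay far below the lowest control. Ptgs1, the constitutive cyclooxygenase, stood at 4.02 and 3.33 CPM against 9.06, 10.02 and 9.61 CPM and fell by 1.38 (adjusted p = 0.00307). Alox5, Ptgs1 and Dpep2 were called in all 5 leave-one-out fits. Ptgs2, the inducible cyclooxygenase, fell by 0.71 (adjusted p = 0.0275), and its call was lost without any 1 shNT library (adjusted p 0.0643 to 0.133). Ptges, the prostaglandin E synthase, rose from 38.9, 42.4 and 39.9 CPM to 75.9 and 63.0 CPM, a log2 change of 0.78, with the call lost without shNT replicate 2 or 3 (adjusted p 0.0541 and 0.0592). The log2 changes of Alox5ap (-0.18), Lta4h (-0.26) and Ltc4s (-0.92), which act after 5-lipoxygenase or help it, did not pass the test.

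Slamf7, a self-binding receptor of the SLAM family, stood at 35.8 and 31.1 CPM with shDpep2.759 and at 6.44, 4.19 and 4.67 CPM with shNT. Its log2 change was 2.71 (SE 0.19, 95% interval 2.31 to 3.12, edgeR adjusted p = 7.42e-05), a 6.57-fold increase. Il1a, which encodes interleukin-1 alpha, stood at 74.3 and 78.1 CPM against 16.8, 11.4 and 9.11 CPM and rose 6.13-fold. Both hairpin libraries were close to each other and well above every control for these 2 genes. Cd83, a surface protein of activated dendritic cells and macrophages, had the smallest p of all, at 66.3 and 62.4 CPM against shNT libraries of 14.4 to 16.4 CPM. It rose 4.22-fold (log2 change 2.08, SE 0.13, adjusted p = 4.93e-05). Thbs1, the matrix protein thrombospondin-1, stood at 9.49 and 10.5 CPM against 2.25, 1.80 and 1.61 CPM and rose 5.29-fold. Il36g, an interleukin-1 family cytokine, stood at 42.4 and 39.8 CPM against 12.6, 6.65 and 6.61 CPM and rose 4.77-fold. In that gene shNT replicate 1 lay above the other controls, as it also did for Il1a, Slamf7, Acp5 and Fpr1.

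The other large increases were of the same order. Acp5, the tartrate-resistant acid phosphatase, rose 4.59-fold. Siglece, an inhibitory sialic acid receptor, rose 3.65-fold, from 5.78, 7.08 and 7.94 CPM to 26.3 and 24.5 CPM. Serpinb9b, a serine protease inhibitor, rose 3.73-fold, and Cyria, a regulator of actin remodelling, 3.83-fold. Ccl22, a chemokine, rose 3.68-fold from 5.72, 3.87 and 3.89 CPM to 18.4 and 14.6 CPM. All of these were called in every leave-one-out fit. The acute-phase gene Saa3 was fitted 5.77-fold higher, but the 2 hairpin libraries stood apart at 89.8 and 36.8 CPM, and the call was lost without any 1 of the shNT libraries (adjusted p 0.116 to 0.142). Fpr1, a receptor for bacterial formyl peptides, rose 4.25-fold, with the call lost without shNT replicate 2 (adjusted p = 0.065).

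**Figure D3:**
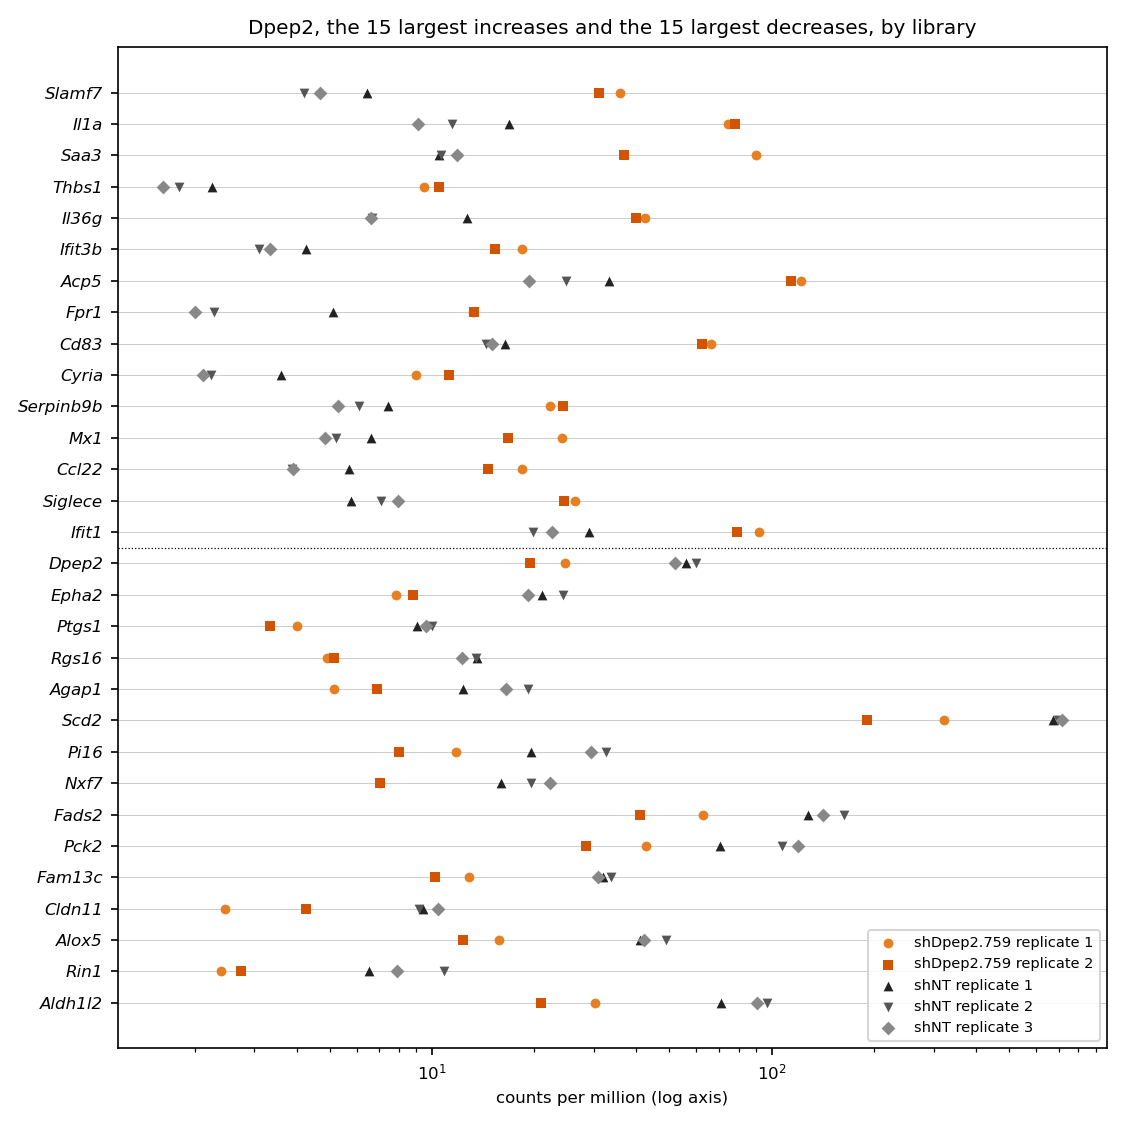
CPM on a log axis in each of the 5 libraries for Dpep2, the 15 largest increases (above the dotted line) and the 15 largest decreases (below it). The increases and decreases were chosen among genes whose hairpin libraries lie wholly above or wholly below the controls, so that separation is set by the choice. Saa3 shows the widest gap between the hairpin libraries among the increases.

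The largest decreases included enzymes of 1-carbon, eicosanoid and fatty acid metabolism. Aldh1l2, a mitochondrial enzyme of folate metabolism, stood at 30.1 and 20.9 CPM with shDpep2.759 and at 71.2, 96.7 and 90.6 CPM with shNT. It fell by 1.76 on the log2 scale (SE 0.19, edgeR adjusted p = 0.000875), and the groups lay far apart. Rin1, a Ras effector that regulates endocytosis, stood at 2.40 and 2.75 CPM against 6.51, 10.8 and 7.89 CPM and fell by 1.71. Fam13c stood at 12.8 and 10.2 CPM against 31.9, 33.6 and 30.9 CPM and fell by 1.48. Rgs16, which shortens G protein signalling, stood at 4.91 and 5.15 CPM against 13.6, 13.5 and 12.3 CPM and fell by 1.38. Epha2, an ephrin receptor, and Nxf7 fell by 1.38 and 1.46. These decreases kept their call in all leave-one-out fits. Cldn11, a tight junction protein, fell by 1.52 and Agap1 by 1.41, with calls lost without shNT replicate 2 (adjusted p 0.0515 and 0.0553). Pi16 fell by 1.46, with its call lost without shNT replicate 2 or 3 (adjusted p 0.0679 and 0.0636).

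Genes were also grouped into 41 lists by known function, and a gene can belong to several. The lists were written with earlier results of these data known, so the share of members called is not a test. Of the 889 tested list members 166 were called. Counts for each list are descriptions, set beside the 2.57% higher and 2.01% lower among all tested genes. Members given with values although they fall outside the naming rule were chosen for their role in the pathway, with their values known. With the replicate number as a block edgeR called 49 list members, and with a 1.5-fold minimum 31. In these fits 7 and 5 type I interferon genes rose, 2 and 1 ATF4 response genes fell, and 1 and 1 osteoclast genes rose. Plin2, Sod2, Mmp9, Gpt2, Igtp and Cyp51, called in all 5 leave-one-out fits, were called in neither.

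**Figure D4:**
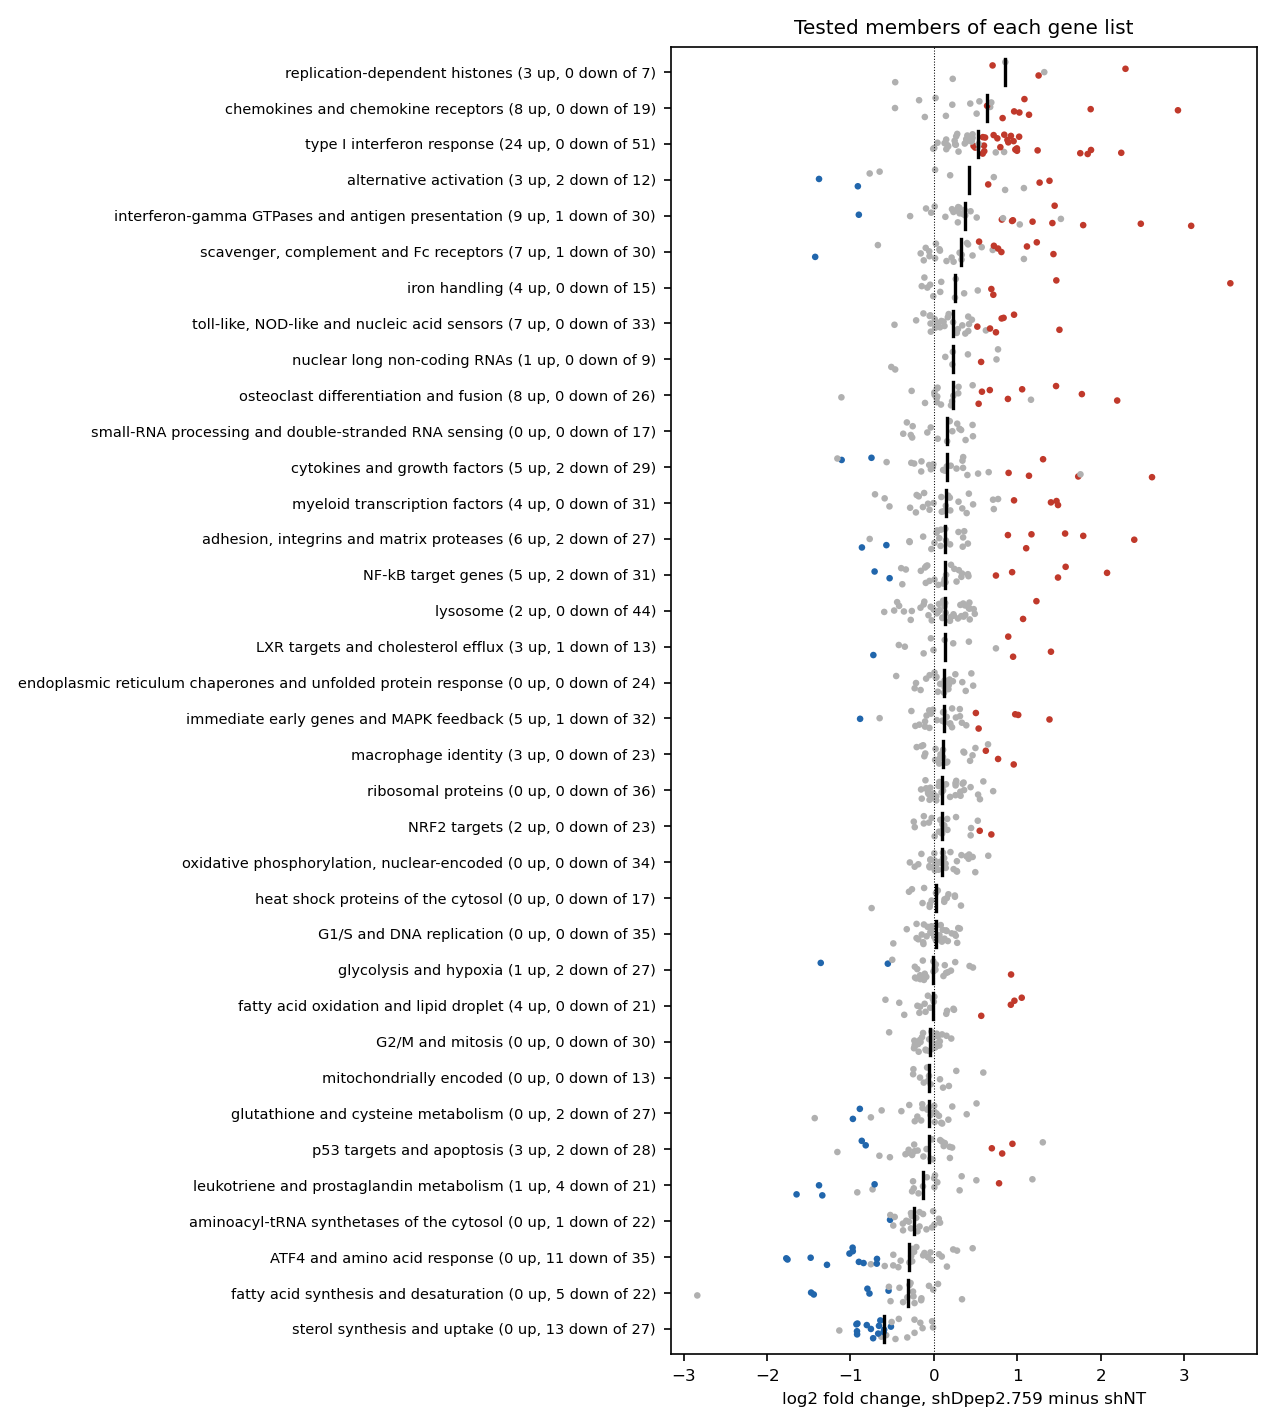
Log2 fold change of every tested member of 36 gene lists, ordered by the list median (black bar), with genes past the threshold coloured red (higher) or blue (lower). The type I interferon members lie almost wholly to the right of 0 and the 27 sterol genes wholly to the left.

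Type I interferon response genes are switched on when interferon alpha or beta binds its receptor and a complex that includes Stat2 and Irf9 reaches the nucleus, and many of their products restrict viruses. Of 51 tested members 24 rose and none fell, 50 had a positive log2 change, and the median was 0.53. The unadjusted p was under 0.05 for 35 of them. Ifit1, an RNA-binding antiviral protein, stood at 91.7 and 79.0 CPM with shDpep2.759 and at 29.0, 19.9 and 22.5 CPM with shNT, and rose 3.59-fold (log2 change 1.84, SE 0.16, edgeR adjusted p = 0.00022). Mx1, an antiviral GTPase, stood at 24.2 and 16.8 CPM against 6.63, 5.23 and 4.83 CPM and rose 3.69-fold. Ifit3 rose 3.38-fold and its near-identical neighbour Ifit3b 4.75-fold, although reads shared by these 2 genes may have been divided between them. Cmpk2, a mitochondrial nucleotide kinase, rose 2.37-fold from 64.6, 54.8 and 54.2 CPM to 133 and 141 CPM. Smaller increases were called in every leave-one-out fit for Zbp1 (log2 change 1.02), Rsad2 (1.00) and Oas2 (1.00). The receptor-proximal factors moved less, with log2 changes of 0.60 for Stat2, called, and 0.17 for Irf9, not called. The Stat2 call was lost without shNT replicate 2 or 3 (adjusted p 0.0974 and 0.0964). Isg15 was at 220 CPM in hairpin replicate 1 and 115 CPM in replicate 2 against 86.0 to 103 CPM, and did not pass. Leaving out shNT replicate 2 gave 8 members that rose, leaving out replicate 3 gave 11, and the count was 23 to 30 without any other library.

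The promoters of these genes are known for the interferon-stimulated response element. RefSeq promoters on build GRCm38.p6, from 250 bases before to 50 after each start, were found for 9626 of the 13204 tested symbols. The core GAAANNGAAA, searched on both strands, was present in 3.99% of all 27025 genes with a promoter. Among called genes it was present in 47 of 249 that were higher (18.9%) and 7 of 185 that were lower (3.78%), against 3.62% of tested genes that did not pass. Within the type I interferon list it was present in 19 of 38 tested members with a promoter and in 7 of the 15 that were called. A match is a description of the letters and not a binding site. The stretches below, read on the strand of each gene, show the match in capitals in 5 interferon genes that rose, with the reverse complement in capitals where the match is on the other strand. Members that did not pass hold it as well. The Ifi211 call was lost without shNT replicate 2 or 3 (adjusted p 0.0916 and 0.0885).
Ifit1, chr19:34640784-34640833, + strand: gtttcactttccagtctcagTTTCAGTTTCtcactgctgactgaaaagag
Ifit3, chr19:34583353-34583402, + strand: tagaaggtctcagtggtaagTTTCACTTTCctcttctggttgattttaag
Rsad2, chr12:26456543-26456592, - strand: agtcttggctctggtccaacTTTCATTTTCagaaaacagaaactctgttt
Stat2, chr10:128270256-128270305, + strand: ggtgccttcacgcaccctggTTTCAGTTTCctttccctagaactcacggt
Ifi211, chr1:173913054-173913103, - strand: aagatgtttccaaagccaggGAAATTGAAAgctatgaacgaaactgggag
The promoter of Ifit3b holds the same stretch as that of Ifit3.

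Interferon-inducible GTPases and antigen presentation genes included the guanylate-binding proteins, with some of the largest fold changes. Of 30 tested members 9 rose and 1 fell, with a median log2 change of 0.37. The guanylate-binding proteins attack vacuoles of intracellular microbes. Gbp2 stood at 7.70 and 7.60 CPM with shDpep2.759 and at 1.34, 0.763 and 0.611 CPM with shNT, a log2 change of 3.09 (SE 0.30, edgeR adjusted p = 0.000299). Gbp3 stood at 28.2 and 29.1 CPM against 9.12, 7.46 and 8.28 CPM and rose 3.46-fold, and Gbp5 was at 7.09 and 3.92 CPM against 0.73 to 1.20 CPM. The Gbp genes lie among similar copies, so how reads were split among them is uncertain. Igtp, an immunity-related GTPase, rose 1.92-fold. Cd274, the checkpoint ligand PD-L1, stood at 81.8 and 75.8 CPM against 33.7, 27.5 and 25.5 CPM and rose 2.73-fold. The peptide-loading genes did not pass the test, with log2 changes of 0.31 for Tap1, 0.37 for Psmb9 and 0.35 for B2m. Cd74, the invariant chain of MHC class II, fell by 0.90, from 665, 735 and 769 CPM to 444 and 331 CPM, and its call was lost without shNT replicate 2 or 3 (adjusted p 0.0754 and 0.0698). The higher count was 6 to 12 and the lower count 0 or 1 across the leave-one-out fits.

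Among NF-kB target genes, 5 of 31 rose and 2 fell, and the median log2 change was 0.13. Tnfaip3, which encodes the feedback inhibitor A20, stood at 55.7 and 60.3 CPM with shDpep2.759 and at 20.1, 20.6 and 21.2 CPM with shNT and rose 2.81-fold (SE of the log2 change 0.12, edgeR adjusted p = 0.00022). Tnfrsf1b, a TNF receptor, stood at 761 and 709 CPM against 272, 242 and 224 CPM and rose 2.99-fold. Sod2, the mitochondrial superoxide dismutase, rose 1.92-fold from 173, 180 and 165 CPM to 347 and 315 CPM. In all 3 genes the replicates of each group were close together. The pathway's own subunits and first inhibitor showed little change, with log2 changes of 0.13 for Rela, 0.14 for Nfkb1 and 0.05 for Nfkbia, none called. Cd83 and Traf1 also rose, and Ptgs2 and Tnfaip2 fell, with the calls of Traf1 and Tnfaip2 lost without shNT replicate 2 (adjusted p 0.0691 and 0.154) or 3 (0.0605 and 0.196). No call of a lower member was kept in all 5 leave-one-out fits, whereas Cd83, Sod2, Tnfaip3 and Tnfrsf1b kept theirs.

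Of 29 cytokine and growth factor genes 5 rose and 2 fell. Il1b stood at 133 and 126 CPM with shDpep2.759 and at 49.9, 32.5 and 34.6 CPM with shNT and rose 3.32-fold (log2 change 1.73, SE 0.17, edgeR adjusted p = 0.000499). The receptor antagonist Il1rn stood at 997 and 880 CPM against 556, 377 and 343 CPM and rose 2.20-fold, and Il10 rose 1.86-fold. The calls of both were lost without shNT replicate 2 (adjusted p 0.0785 and 0.0911) or 3 (0.0597 and 0.0837). The growth factor Areg rose by 1.31 on the log2 scale, whereas Hbegf and Spp1 fell by 1.11 and 0.75, and all 3 calls were lost without shNT replicate 2 or 3 (adjusted p 0.13 to 0.161), that of Areg also without shDpep2.759 replicate 2 (0.108) and that of Spp1 without shNT replicate 1 (0.0702). Tnf and Il6 did not pass, with log2 changes of 0.11 and 0.53. Without shNT replicate 2 or 3 the counts were 2 higher and 0 lower.

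Chemokines and their receptors had a median log2 change of 0.64. Of 19 tested 8 rose and none fell. However, 1 was called lower by DESeq2, without a low-count filter and with GC and length correction. The same lower count resulted when libraries were scaled by total count alone or by the upper quartile. Ccl12 stood at 5.08 and 3.39 CPM with shDpep2.759 and at 0.79, 0.599 and 0.278 CPM with shNT, a log2 change of 2.93 (SE 0.38, edgeR adjusted p = 0.00187). Ccl12 and Ccl22 kept their call in all leave-one-out fits. The monocyte attractants Ccl2 and Ccl7 and the T cell attractants Ccl5 and Cxcl10 rose by 0.82, 1.03, 1.14 and 0.64 on the log2 scale. Ccl9 rose by 0.96, from 1211, 852 and 889 CPM to 2174 and 1662 CPM. All 5 calls were lost without either of shNT replicates 2 and 3, and those of Ccl5 and Ccl7 also without shNT replicate 1 and shDpep2.759 replicate 1, respectively. Without shNT replicate 2 the members that rose numbered 2, and without replicate 3 they numbered 3. The neutrophil attractant Cxcl2 and the chemokine Ccl3 did not pass, with log2 changes of -0.47 and -0.11.

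Of 33 tested sensors of microbes and damage 7 rose and none fell, with a median log2 change of 0.23. Here too 1 was called lower by DESeq2, without a low-count filter and with GC and length correction. Scaling by total count alone or by the upper quartile also gave 1 lower. Casp4 and Casp1, the inflammatory caspases, rose 1.79-fold and 1.76-fold. The endosomal receptor Tlr8 stood at 6.64 and 4.68 CPM with shDpep2.759 and at 3.10, 1.47 and 1.44 CPM with shNT, and Tlr3 rose 1.68-fold. Without shNT replicate 2 or without shNT replicate 3 no sensor gene passed (edgeR adjusted p 0.0515 to 0.181 for Casp4, Casp1, Tlr8 and Tlr3). The Tlr3 call was also lost without shDpep2.759 replicate 2 (adjusted p = 0.0884). The log2 changes of Tlr4 (-0.04), Cgas (0.41), Sting1 (-0.05) and Nlrp3 (0.09) did not pass the test. The genes for small-RNA processing and double-stranded RNA sensing gave no call in the main edgeR fit among 17 tested, while DESeq2 called 1 higher. With no low-count filter edgeR called 2 higher, and with GC and length correction 2 higher and 1 lower. Their largest log2 changes were 0.47 for Tarbp2 and 0.46 for Eif2ak2, and 6 of the 17 had an unadjusted p under 0.05.

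Scavenger, complement and Fc receptor genes counted 7 higher and 1 lower of 30, with a median log2 change of 0.32. Clec4n, the lectin receptor Dectin-2, stood at 41.2 and 32.3 CPM with shDpep2.759 and at 19.3, 13.6 and 14.1 CPM with shNT and rose 2.35-fold (edgeR adjusted p = 0.00359), the 1 gene of this list that was called in all leave-one-out fits. Cfb, complement factor B, rose 2.70-fold and Fcgr4, an activating Fc receptor, 2.17-fold, each with its call lost without shNT replicate 2 (adjusted p 0.051 and 0.0678). Tyro3, a receptor for apoptotic cells, fell by 1.42, and its call was kept only without shDpep2.759 replicate 1 among the 5 fits. The higher count ranged from 1 without shNT replicate 2 to 11 without shDpep2.759 replicate 2.

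Most macrophage identity genes were not called, although the share that rose (13%) was above the 2.57% of all tested genes. Of 23 tested 3 rose and none fell, with a median log2 change of 0.11, and 9 rose without shDpep2.759 replicate 2. Adgre1, which encodes F4/80, stood at 251 and 265 CPM with shDpep2.759 and at 142, 127 and 130 CPM with shNT and rose 1.94-fold (SE of the log2 change 0.12, edgeR adjusted p = 0.0012). Fcgr1 and Mpeg1 rose by 0.77 and 0.62 on the log2 scale, with both calls lost without shNT replicate 2 or 3. Csf1r, the receptor for macrophage colony-stimulating factor, was at 1092 and 1282 CPM against 1195, 1143 and 1069 CPM and did not differ beyond the spread between libraries. Cd68, Itgam and Ptprc likewise did not pass, with log2 changes of 0.15, 0.07 and 0.11.

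Markers of other cell types were low in RAW264.7 but some were higher with shDpep2.759. The 14 dendritic cell markers summed to 72.5 and 74.0 CPM with the hairpin and 19.7 to 22.8 CPM with shNT, of which Cd83 made up 66.3 and 62.4 CPM with the hairpin. Of 6 tested, Cd83 and Ccr7 were called and 2 had a negative change. Ccr7, a chemokine receptor that guides cells to lymph nodes, stood at 3.13 and 3.22 CPM against 0.73, 0.381 and 0.50 CPM and was called in all leave-one-out fits (log2 change 2.56, edgeR adjusted p = 0.00239). The dendritic markers Cd209a, Siglech and Dpp4 were at 0 in all 5 libraries. Neutrophil markers summed to 113 and 256 CPM against 30.8 to 45.8 CPM. That sum was nearly all S100a8, at 235 and 99.6 CPM against 33.3, 18.4 and 16.9 CPM, whose 7.33-fold change did not pass in edgeR (adjusted p = 0.103) but did in DESeq2 (0.000118) and without robust estimation (0.00412), while Ly6g, Elane, Ltf, Ngp and Retnlg were at 0. Lymphocyte markers summed to 27.8 and 31.4 CPM against 22.6 to 25.8 CPM, with Cd3e, Ncr1, Nkg7 and Trac among those at 0. Of 4 tested, the cytokine receptor gene Il7r rose 2.47-fold (adjusted p = 0.00447, lost without shNT replicate 2 at 0.0549), and the immunoglobulin gene Ighm fell by 0.84 (adjusted p = 0.034), called in 1 of the 5 leave-one-out fits. Fibroblast and matrix markers summed to 4.27 and 4.47 CPM against 0.912 to 2.23 CPM, with Col1a2, Col6a1 and Pdgfra at 0. The matrix proteoglycan gene Dcn was called, at 2.34 and 2.05 CPM against 0.426, 0.654 and 0.556 CPM, with its call lost without shNT replicate 2 or 3 (adjusted p 0.059 and 0.063). The part of any of these in the changes of other gene groups was not tested.

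RAW264.7 cells can form osteoclasts, the bone-resorbing cells that macrophage precursors fuse into. Of 26 tested osteoclast genes 8 rose and none fell, with a median log2 change of 0.23. Acp5 stood at 122 and 114 CPM with shDpep2.759 and at 33.2, 24.8 and 19.3 CPM with shNT (log2 change 2.20, SE 0.19, edgeR adjusted p = 0.000341). Mmp9, a gelatinase, stood at 71.2 and 81.1 CPM against 44.6, 39.0 and 39.8 CPM and rose 1.85-fold. These 2 kept their call in all leave-one-out fits. Src rose 2.08-fold and Tcirg1, a proton pump subunit, 1.49-fold, with calls lost without shNT replicate 2 (adjusted p 0.0679 and 0.104), and for Tcirg1 also without shNT replicate 1 or 3 (0.0693 and 0.163). The master factor Nfatc1 and the receptor Tnfrsf11a did not pass, with log2 changes of 0.09 and 0.21, nor did Ctsk at 0.893 and 2.28 CPM against 0.5 to 0.817 CPM. Without shNT replicate 2 only 2 members rose, and without replicate 3 only 3. Lysosomal genes were called in 2 of 44 cases, Gpnmb (2.35-fold higher) and Ctsc (2.10-fold higher, lost without shNT replicate 2 at adjusted p = 0.0516). The lysosomal count was 10 higher and 1 lower without shDpep2.759 replicate 2.

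Adhesion and protease genes gave 6 higher and 2 lower of 27. The integrin subunit Itga5 stood at 437 and 459 CPM with shDpep2.759 and at 208, 215 and 201 CPM with shNT and rose 2.15-fold (SE of the log2 change 0.12, edgeR adjusted p = 0.00056). Thbs1 and Mmp9 rose as described above, and the proteases Mmp12 and Mmp13 rose by 1.17 and 1.57 on the log2 scale, with calls lost without shNT replicate 2 or 3 and, for Mmp12, also without shDpep2.759 replicate 2 (adjusted p = 0.0961). Itga6, another integrin subunit, fell by 0.86, and its call was lost in the same 2 fits (adjusted p 0.0553 and 0.063). Itgam, Itgb1 and Itgb2 did not pass, with log2 changes of 0.07, 0.08 and 0.07.

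The factor Srebf2 drives sterol synthesis and uptake genes when sterols are scarce, and the products make cholesterol or import it. Of 27 tested 13 fell and none rose, all 27 had a negative log2 change, and the median was -0.60. Cyp51, which removes a methyl group from lanosterol, stood at 31.0 and 29.2 CPM with shDpep2.759 and at 57.0, 54.8 and 59.2 CPM with shNT and fell by 0.92 on the log2 scale (SE 0.12, edgeR adjusted p = 0.00236). Insig1, which holds the Srebf2 protein in the endoplasmic reticulum, stood at 30.2 and 26.8 CPM against 47.2, 58.4 and 55.9 CPM and fell by 0.92. In both genes the hairpin libraries lay below all controls. Srebf2 itself had a log2 change of -0.51 (adjusted p = 0.0619). The individual calls were near the threshold. Cyp51 alone kept its call in all 5 leave-one-out fits, and Insig1 lost its call without shNT replicate 2 (adjusted p = 0.0536). With the replicate number as a block Cyp51 had an edgeR adjusted p of 0.0695, and with a 1.5-fold minimum 0.168. No sterol member was called in either of those fits. The members that fell numbered 2 without shNT replicate 2, 4 without replicate 3, 8 without replicate 1, and 10 and 16 without a hairpin library.

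Fatty acid synthesis genes included 5 of 22 that fell and none that rose, with a median log2 change of -0.30. The largest called decreases lay in the desaturases, which introduce double bonds into fatty acids. Scd2 stood at 321 and 191 CPM with shDpep2.759 and at 673, 696 and 717 CPM with shNT and fell by 1.44 on the log2 scale (SE 0.20, edgeR adjusted p = 0.00401). Fads2 stood at 62.9 and 40.9 CPM against 128, 163 and 141 CPM and fell by 1.47. Both kept their call in all leave-one-out fits. Fads1 and Acsl3 fell by 0.77 and 0.80, with calls lost without shNT replicate 3 (adjusted p 0.0592 and 0.0706) and, for Fads1, also without shNT replicate 2 (0.0863). Srebf1, a transcription factor for these genes, fell by 0.54, with its call lost without either of shNT replicates 2 and 3. Scd1 was at 18.3 and 4.50 CPM against 67.1, 92.8 and 84.9 CPM, the widest fitted change of the list at -2.84, but the hairpin libraries were far apart and it did not pass (adjusted p = 0.152). Fasn and Acly, which supply and extend the chain, had log2 changes of -0.15 and -0.23, not called.

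Of 21 tested genes of fatty acid oxidation and lipid droplets 4 rose and none fell, while the median log2 change was -0.01. Plin2, the coat protein of lipid droplets, stood at 747 and 784 CPM with shDpep2.759 and at 404, 406 and 401 CPM with shNT and rose 1.90-fold (SE of the log2 change 0.12, edgeR adjusted p = 0.00187). Cd36, a scavenger receptor for oxidised lipids and fatty acids, stood at 913 and 935 CPM against 543, 383 and 410 CPM and rose 2.08-fold. Hilpda, an inhibitor of droplet lipolysis, rose 1.95-fold. The Plin2 call was kept in all leave-one-out fits, and those of Cd36 and Hilpda were lost without shNT replicate 2 (adjusted p 0.0542 and 0.0554). Plin2 lost its call with the replicate number as a block (edgeR adjusted p = 0.0811) and with a 1.5-fold minimum (0.164). Cpt1a, the gate of mitochondrial fatty acid oxidation, rose 1.48-fold and was called only in the fit without shDpep2.759 replicate 1 among the 5.

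LXR target and cholesterol efflux genes did not move in 1 direction. Of 13 tested 3 rose, which were Nr1h3, Abca1 and Smpdl3a, and 1 fell. Smpdl3a rose 1.86-fold, with its call lost without shNT replicate 2 or 3 (edgeR adjusted p 0.0536 and 0.0559). Nr1h3, which encodes the receptor LXR alpha, stood at 13.4 and 14.9 CPM with shDpep2.759 and at 6.02, 5.88 and 4.11 CPM with shNT and rose 2.65-fold (log2 change 1.40, SE 0.20, edgeR adjusted p = 0.0028), in all leave-one-out fits. The efflux transporter Abca1 stood at 33.0 and 33.6 CPM against 19.6, 16.6 and 15.5 CPM and rose 1.93-fold. The related transporter Abcg1 stood at 41.7 and 36.2 CPM against 63.2, 68.7 and 61.4 CPM and fell by 0.73. The calls of both transporters were lost without shNT replicate 2 (adjusted p 0.0536 and 0.0777), and that of Abcg1 also without shNT replicate 3 (0.0549). Apoe had a log2 change of -0.01.

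ATF4 is a transcription factor that raises amino acid synthesis and transport when translation initiation is restrained. Of 35 tested genes of the ATF4 amino acid response 11 fell and none rose, although DESeq2 called 1 higher and 2 were called higher without shDpep2.759 replicate 2, with a median log2 change of -0.29, and 29 had a negative change. Aldh1l2 gave the largest decrease with a kept call, as above. Gpt2, an alanine aminotransferase, stood at 34.4 and 31.2 CPM with shDpep2.759 and at 54.8, 72.6 and 65.7 CPM with shNT and fell by 0.97 on the log2 scale (SE 0.15, edgeR adjusted p = 0.00441), also in all leave-one-out fits. Pck2, mitochondrial phosphoenolpyruvate carboxykinase, stood at 42.6 and 28.4 CPM against 70.6, 107 and 119 CPM and fell by 1.48, with the call lost when shDpep2.759 replicate 2 or either of shNT replicates 2 and 3 was left out (adjusted p 0.0592 to 0.109). Pycr1, which makes proline, fell by 1.77, and the serine synthesis genes Psph and Phgdh fell by 0.90 and 0.84, with calls lost without shNT replicate 2 or 3 (adjusted p 0.0647 to 0.134). Slc1a4, a neutral amino acid transporter, fell by 1.01 and Asns, asparagine synthetase, by 0.68, with both calls lost without shNT replicate 2 (adjusted p 0.0788 and 0.114) or 3 (0.0664 and 0.122). Atf4 itself had a log2 change of -0.43 (adjusted p = 0.101). Leaving out shNT replicate 2 left 2 members that fell and leaving out replicate 3 left 3, against 10 to 15 in the other leave-one-out fits.

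The C/EBP-ATF response element, here TGATGNAA on either strand, was present in 4.51% of all genes with a promoter and 2.92% of those tested. In the ATF4 list it was present in 10 of 31 tested genes with a promoter and in 5 of the 10 that were called, which are Asns, Pck2, Pycr1, Slc1a4 and Trib3. Among all called genes it was present in 9 of 185 that were lower (4.86%) and 12 of 249 that were higher (4.82%). The matches in 2 of the genes that fell are shown in capitals, on the strand of each gene and build GRCm38.p6.
Pck2, chr14:55540143-55540190, + strand: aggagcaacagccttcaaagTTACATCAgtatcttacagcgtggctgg
Pycr1, chr11:120643824-120643871, - strand: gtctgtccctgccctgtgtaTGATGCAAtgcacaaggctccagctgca
The sterol response element ATCACNCCAC was present in 0.27% of all genes with a promoter and 0.166% of those tested. In the sterol list, 0 of 7 called members with a promoter held it. A match that rare would usually be absent from any 7 genes, so this count says nothing about the sterol list.

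Calls in other stress programmes ran from none among heat shock genes to 26.7% of iron genes. The share over all tested genes was 4.58%. Of 22 cytosolic aminoacyl-tRNA synthetase genes 1 fell, Nars by 0.53 on the log2 scale, lost without any 1 shNT library (edgeR adjusted p 0.0585 to 0.245), and 19 had a negative log2 change. None of 24 endoplasmic reticulum chaperone genes was called by edgeR, with 4 at an unadjusted p under 0.05, while DESeq2 called 1 higher and 1 lower and limma-voom 0. None of 17 heat shock genes was called by edgeR, DESeq2 or limma-voom, with 2 at an unadjusted p under 0.05 in edgeR and 2 called lower without shDpep2.759 replicate 2. With no low-count filter edgeR called 1 gene of each of these lists, chaperone and heat shock, lower. With GC and length correction 1 chaperone gene was called lower. Hspa5, the main chaperone of the endoplasmic reticulum, was at 2073 and 2081 CPM with shDpep2.759 and at 1997, 1744 and 1985 CPM with shNT. Of 23 NRF2 targets 2 rose, Hmox1 (1.61-fold) and Srxn1 (1.46-fold), with calls lost without shNT replicate 2 or 3. Glutathione and cysteine genes gave 2 lower of 27, Gstt3 (log2 change -0.89) and Cth (-0.97), with calls lost without the same libraries. Of 15 iron genes 4 rose. Lcn2, an iron-siderophore binding protein, was at 361 and 198 CPM against 103, 105 and 95.3 CPM and Slc11a1, the phagosomal metal transporter, at 446 and 449 CPM against 274, 279 and 266 CPM, with both calls lost without shNT replicate 2 or 3 (adjusted p 0.0541 to 0.0697). Steap4 was at 1.28 and 0.643 CPM against 0.167 CPM or less, and its call was lost without any 1 shNT library (adjusted p 0.0541 to 0.112), while it was not tested without a shDpep2.759 library.

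Cell cycle genes gave no call in the main edgeR fit. None of 35 G1/S genes and none of 30 G2/M genes passed in that fit, and 6 and 1 of them had an unadjusted p under 0.05. The lowest adjusted p were those of the cyclin Ccnd2 (0.0589, log2 change -0.49) and the cytokinesis gene Anln (0.0617, -0.54), and both were called by DESeq2. Both were also called by edgeR without a low-count filter (adjusted p 0.0133 and 0.00375). In edgeR Ccnd2 was called with upper quartile scaling (0.0485) and Anln with GC and length correction (0.00987). With that correction 1 G1/S gene was called higher. No call was made in the main fit among 36 ribosomal protein genes, 34 nuclear genes of oxidative phosphorylation or 13 mitochondrially encoded genes. There 1, 3 and 0 had an unadjusted p under 0.05, and DESeq2 and limma-voom also called 0. With no low-count filter edgeR called 2 ribosomal protein genes and 3 oxidative phosphorylation genes higher. Without shDpep2.759 replicate 2, 13 ribosomal protein genes and 8 oxidative phosphorylation genes were called higher. Among p53 targets and apoptosis genes 3 rose and 2 fell of 28. Plk2, a stress-induced kinase, rose 1.76-fold, in all leave-one-out fits. Bcl2l11, which promotes apoptosis, rose 1.92-fold, and Bcl2, which opposes it, fell by 0.82, with both calls lost without shNT replicate 2 (adjusted p 0.0666 and 0.109), and that of Bcl2 also without shNT replicate 3 (0.0838). In glycolysis and hypoxia, 1 gene rose (Pfkfb3, 1.90-fold) and 2 fell (Car9 and Ndrg1) of 27, and all 3 calls were lost without shNT replicate 2 (adjusted p 0.0515 to 0.192). The Car9 call was also lost without shNT replicate 3 (0.0511), and the Ndrg1 call was kept only without shDpep2.759 replicate 1.

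Of 32 immediate early and MAPK feedback genes 5 rose and 1 fell. Myc stood at 64.6 and 83.2 CPM with shDpep2.759 and at 29.6, 29.7 and 25.5 CPM with shNT and rose 2.61-fold (log2 change 1.39, SE 0.14, edgeR adjusted p = 0.000474). The phosphatases Dusp1 and Dusp2, which switch MAP kinases off, rose 2.02-fold and 1.97-fold. These 3 were called in all leave-one-out fits, and the groups did not overlap in any of them. Klf2, a factor known to restrain inflammation, fell by 0.88, with the call lost without shNT replicate 2 or 3 (adjusted p 0.107 and 0.112). Among 31 myeloid transcription factors 4 rose and none fell. Maf stood at 20.9 and 27.3 CPM against 10.7, 8.44 and 6.61 CPM and rose 2.81-fold, and Id3, which blocks bHLH factors, rose 1.95-fold. The lineage factors Spi1 and Cebpa did not pass, with log2 changes of 0.39 and -0.22. Of 12 alternative activation genes 3 rose, Myc among them, and 2 fell, Ptgs1 among them, both already counted in lists above. Tgm2, a transglutaminase, rose 2.41-fold while Arg1 (log2 change 0.85) and Mrc1 (1.08) did not pass. Of 7 replication-dependent histone genes 3 rose, and none kept its call in all leave-one-out fits. Snhg1 rose 1.48-fold among 9 nuclear long non-coding RNAs, with its call lost without any 1 shNT library (adjusted p 0.0575 to 0.147).

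To see which of these changes the other Dpep2 hairpin shared, the 2 hairpins were set against each other in a fit of all 7 libraries, which tested 13450 genes. Of these 112 (0.833%) differed, 78 higher and 34 lower with shDpep2.759. Dpep2 was at 22.4 and 17.9 CPM with shDpep2.968, and the difference between the hairpins was 0.14 on the log2 scale (95% interval -0.23 to 0.51, edgeR adjusted p = 0.726). Of the 131 genes named by rule 22 differed. The rule chose genes by their change in the same shDpep2.759 libraries, so this share cannot be read against that of all genes. On the scale of that fit, Ccl22 was at 18.5 and 14.6 CPM with shDpep2.759 but at 2.26 and 3.23 CPM with shDpep2.968, a difference of 2.59 (95% interval 2.02 to 3.16, adjusted p = 0.00151). Slamf7 was at 4.28 and 8.70 CPM with shDpep2.968, within or near the range of shNT, a difference of 2.37 (1.73 to 3.004). Abca1 was at 9.60 and 7.61 CPM with shDpep2.968, below the controls rather than above them, a difference of 1.96 (1.58 to 2.34). These 3 were the genes that differed in all 4 fits without 1 hairpin library. The number of named genes that differed was 3 without shDpep2.968 replicate 1, 3 without its replicate 2, 12 without shDpep2.759 replicate 1 and 41 without its replicate 2.

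**Figure D5:**
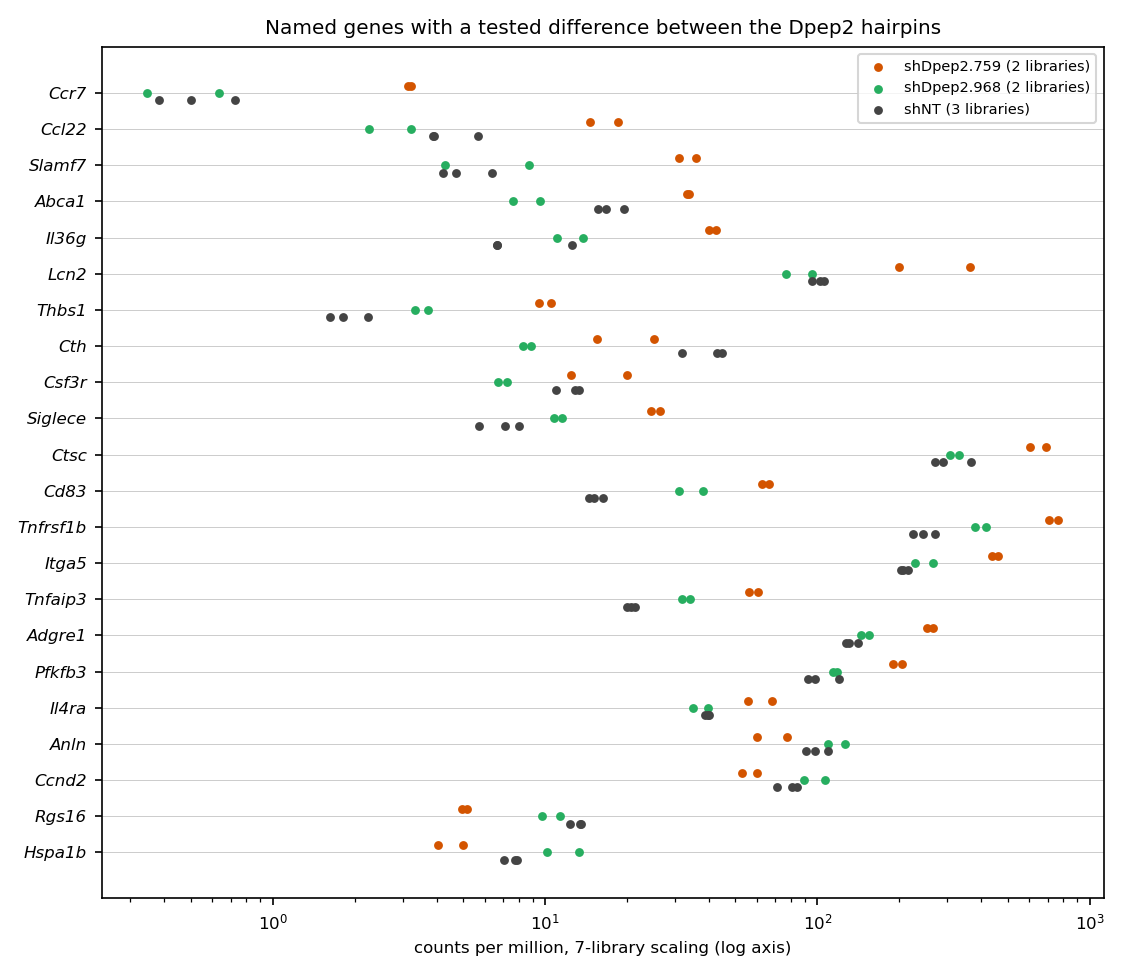
CPM on a log axis in all 7 libraries for the 22 named genes that differed between shDpep2.759 and shDpep2.968, ordered by the difference. For Ccr7, Ccl22, Slamf7 and Abca1 the shDpep2.968 libraries lie near or below the shNT libraries while the shDpep2.759 libraries lie above both.

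For other genes the difference between the hairpins did not pass, which does not show that they act alike. It was 0.22 for Ifit1 (95% interval -0.31 to 0.76), 0.11 for Ifit3 (-0.27 to 0.49) and 0.14 for Gbp3 (-0.21 to 0.49). For Alox5 the difference was -0.35 (95% interval -0.72 to 0.03). The differences of Il1a and Il1b were 0.26 (-0.27 to 0.78) and -0.04 (-0.50 to 0.43). The hairpins share their control libraries, so each hairpin's own change against shNT is given only side by side. For Ccl22 the log2 change was 1.88 with shDpep2.759 and -0.71 with shDpep2.968, for Cd83 2.08 and 1.18, for Tnfaip3 1.49 and 0.67, and for Itga5 1.11 and 0.25. For other genes the change with shDpep2.968 was the larger, at 0.92 and 1.51 for Plin2, -1.44 and -2.36 for Scd2 and -0.97 and -2.21 for Cth, and for Ifit1 the values were 1.84 and 1.63.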

How the data were processed

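RNA-seq of RAW264.7 cells gave 1 table of raw counts per gene symbol, deposited by the authors. Per the labels' protocols, total RNA was extracted with a TIANGEN kit, made into TruSeq Stranded Total RNA libraries and read as 150 bp pairs. The submitters' processing notes name Trim Galore, Salmon and hg38, without versions or roles. Neither annotation nor strand setting is named (not given in the sources used here). The symbols are mouse and hg38 is human, so gene coordinates come only from the RefSeq promoter table (GRCm38.p6).

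Genes with at least 10 counts in 2 of the 5 libraries were fitted with edgeR 4.0.16 in R 4.3.3 (TMM scaling, robust quasi-likelihood test, Benjamini-Hochberg adjustment over all tested genes, threshold 0.05). CPM values use TMM-scaled library sizes. The standard error is the absolute log2 fold change divided by the square root of F. The fit had 3 residual degrees of freedom and a common biological coefficient of variation of 13.9%. No 2 libraries were duplicates: chi-square per degree of freedom within groups was 14.2 to 41.0. The scripts were tested on simulated data with 200 changed genes.

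Named genes are Dpep2, the 15 largest increases and 15 largest decreases past the threshold (mean of at least 5 CPM, groups not overlapping, no clone, predicted-model, RIKEN or pseudogene name), and from each list up to 4 called members by smallest p, or 2 members where none was called. The members and lists were chosen with earlier results of these data known. Alternatives were other scalings and filters, DESeq2 1.42.0, limma-voom 3.58.1, GC and length correction, a replicate block, a 1.5-fold minimum and leaving out each library. Near-identical genes and pseudogenes have uncertain counts.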

Additional observations from a re-analysis of the deposited data

Results flagged for a closer look

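The hairpins shDpep2.759 and shDpep2.968 differed in 22 named genes by a test of the difference itself (edgeR, adjusted over 13450 genes). Naming used the change in the same shDpep2.759 libraries, so the count is a description only. Each value is log2 of shDpep2.759 minus shDpep2.968. Immune and surface genes that were higher with shDpep2.759 were Ccr7 (2.68), Ccl22 (2.59), Slamf7 (2.37), Il36g (1.73), Csf3r (1.21), Siglece (1.19), Cd83 (0.90), Tnfrsf1b (0.89), Tnfaip3 (0.82), Adgre1 (0.79) and Il4ra (0.74). Genes of transport, matrix and metabolism that were higher were Abca1 (1.96), Lcn2 (1.70), Thbs1 (1.51), Cth (1.24), Ctsc (1.02), Itga5 (0.86) and Pfkfb3 (0.77). Lower with shDpep2.759 were Hspa1b (-1.38), Rgs16 (-1.06), Ccnd2 (-0.80) and Anln (-0.78). Csf3r, Hspa1b, Ccnd2 and Anln were not called for shDpep2.759 against shNT in the main fit. The log2 change of Csf3r against shNT was 0.38 with shDpep2.759 and -0.83 with shDpep2.968. For Cth both hairpins lay below shNT, at 25.0 and 15.5 CPM with shDpep2.759 and 8.90 and 8.30 CPM with shDpep2.968 against 31.8 to 44.6 CPM. In a fit of the 4 Dpep2 hairpin libraries alone 15 named genes differed.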

How the results depend on the processing

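Against 605 genes past the threshold and 166 list members, the count was 1260 and 245 without a low-count filter, 1195 and 228 with GC and length correction, and 71 and 31 with a 1.5-fold minimum. DESeq2 called 843 genes, limma-voom 564 and edgeR without robust estimation 515, and other scalings 608 to 625. Leaving out 1 library gave 108 to 1149 genes and 50 to 229 list members. The share of higher calls was 56.0%, 72.2% without shNT replicate 2 or 3 and 78.9% with the 1.5-fold minimum, but 49.4% without shDpep2.759 replicate 1, 50.4% with GC and length correction and 51.4% without a filter or with library size alone. Named genes that differed between the Dpep2 hairpins numbered 22, and 3 to 41 with 1 hairpin library left out, alternatives chosen after seeing the data. The cause was not tested. Dpep2 stayed lower and past the threshold in every alternative. Of 113 named genes that were called, 53 were called in all 5 leave-one-out fits and 40 under every alternative, and none changed sign. Rps6, not called, had a log2 change of 0.44, against -0.019 without shDpep2.759 replicate 1 and 0.79 without its replicate 2. With the replicate number as a block, 118 genes (88 higher, 30 lower) and 49 list members were called. Same-numbered libraries deviated with correlations of -0.169 and -0.168. The deviations of the 2 hairpin libraries are mirror images, so these values cannot show whether same-numbered libraries shared a day or batch. Depth limits 121 called genes with a mean under 5 CPM.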

Other observations

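Some gene families outside the naming rule had several called members, and they were chosen after their values were seen. All 3 tested Clec4a receptors rose, with log2 changes of 1.54 for Clec4a1, 1.57 for Clec4a2 and 1.38 for Clec4a3, and all 3 Pilr receptors rose (Pilra 1.17, Pilrb1 1.41, and Pilrb2). Of 6 Ms4a genes 4 rose, among them Ms4a6b (0.96), Ms4a6c (0.94) and Ms4a6d (1.00). The calls of these Pilr and Ms4a6 genes and of Clec4a2 were lost without shNT replicate 2, while Clec4a1 and Clec4a3 were called in every leave-one-out fit. Of 9 Gbp genes 7 rose, with a median log2 change of 1.79. Similar copies in these families make the division of reads uncertain. Met, the hepatocyte growth factor receptor, stood at 6.87 and 7.90 CPM with shDpep2.759 and at 1.03, 0.599 and 0.50 CPM with shNT, called in all 5 leave-one-out fits. Marcks, an actin-binding kinase substrate, stood at 32.6 and 49.8 CPM against 12.1, 9.92 and 12.6 CPM, and Il36a at 9.27 and 6.43 CPM against 2.37, 1.74 and 1.72 CPM, both also called in all 5. Lpin1, a phosphatidate phosphatase, fell by 1.14 on the log2 scale. Of 290 processed pseudogenes tested 12 were lower and 0 higher (4.14% lower, against 2.19% of protein-coding genes).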
